A study of Mus musculus with 4 samples.

Results

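The genes described here encode 6 enzymes of sterol and isoprenoid synthesis: Hmgcs1, Idi1, Fdps, Fdft1, Sqle and Lss. They were taken as every probe set whose platform gene symbol was one of these names, which gave 9 probe sets of 10833 with 1 gene symbol, and 6 genes of 8251. Their transcripts were measured in total RNA of whole lungs pooled from mice of the inbred strain C57BL/6J, on Affymetrix MG_U74Av2 arrays, 1 array per pool. The 4 pools held lungs of unexposed mice (titled 0 h) and lungs collected 6, 18 and 90 h after mice inhaled an aerosol of hexamethylene diisocyanate (HDI) at 10 mg per cubic metre. HDI is a reactive chemical of polyurethane paints that irritates the airways. How many mice a pool held, how long exposure lasted and how the unexposed mice were handled is not stated in the sources. With 1 array per pool there is no spread between replicates and no test was possible, so every fold below compares arrays, and all comparisons with unexposed lungs share 1 array.

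The mevalonate pathway turns acetyl-CoA into isoprene units, which are joined into farnesyl diphosphate. From there 1 branch makes squalene and then cholesterol, and others make the lipid tails of prenylated proteins, ubiquinone and dolichol. The enzymes of the cholesterol branch are classic targets of the SREBP transcription factors, which move to the nucleus when membranes of the endoplasmic reticulum are short of sterol. In lung, cholesterol is the main neutral lipid of surfactant, and alveolar macrophages take up and export much of it.

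Because the members are known to share this control, the promoters given by RefSeq for the build GRCm38.p6 are shown, from 250 bases before to 50 after the annotated start. Hmgcs1, Idi1 and Lss, 3 of the 6 members, had an entry in that table, and Fdps, Fdft1 and Sqle had none. The Hmgcs1 window is chr13:119690101-119690400 on the plus strand, the Idi1 window chr13:8885356-8885655 on the plus strand and the Lss window chr10:76531355-76531654 on the plus strand. Capitals mark TCACNCCAC, the core of the sterol regulatory element, and CCAAT, the NF-Y box, each searched on both strands.
Hmgcs1: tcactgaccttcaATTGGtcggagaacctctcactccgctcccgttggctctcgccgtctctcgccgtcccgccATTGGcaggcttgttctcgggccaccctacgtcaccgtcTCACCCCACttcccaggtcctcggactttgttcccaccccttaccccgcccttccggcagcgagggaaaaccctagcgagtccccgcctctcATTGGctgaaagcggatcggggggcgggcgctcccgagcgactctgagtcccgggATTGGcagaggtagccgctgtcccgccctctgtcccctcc
Idi1: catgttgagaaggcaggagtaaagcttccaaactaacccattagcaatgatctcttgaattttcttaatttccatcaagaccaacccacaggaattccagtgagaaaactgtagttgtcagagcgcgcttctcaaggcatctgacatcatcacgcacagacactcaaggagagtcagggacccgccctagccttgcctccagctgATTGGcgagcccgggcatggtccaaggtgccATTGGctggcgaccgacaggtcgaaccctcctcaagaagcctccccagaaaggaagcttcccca
Lss: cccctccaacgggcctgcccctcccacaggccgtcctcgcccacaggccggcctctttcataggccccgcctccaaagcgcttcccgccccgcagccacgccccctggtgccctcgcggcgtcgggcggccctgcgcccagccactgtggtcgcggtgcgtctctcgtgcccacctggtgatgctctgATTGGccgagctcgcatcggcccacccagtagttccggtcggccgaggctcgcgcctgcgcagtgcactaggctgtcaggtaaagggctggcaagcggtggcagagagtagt
Hmgcs1 held 1 sterol regulatory element core, TCACCCCAC, whose first base lies 137 bases before the start, and the windows of Idi1 and Lss held none with these letters. Of 32851 promoter windows of the same length, 1.24% held this core. The same search found it in 0 of 14 other mevalonate and sterol enzyme genes with a window. It was also found in 0 of 10 genes of SREBP control and sterol uptake with a window. Absence of these exact letters is therefore not read as absence of a site. Idi1 held 2 CCAAT boxes, 45 and 14 bases before the start, Lss held 1, at 62 bases, and Hmgcs1 held 4, and 37.4% of all windows held at least 1. No 2 of these marked matches overlapped. The GC box GGGCGG, not capitalised, occurred in all 3 windows and in 35.7% of all windows. A match to letters is not a measured binding site.

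In all 6 members the 18 h pool had the highest level of the 4 pools. Idi1, Sqle and Fdps were at least 2-fold higher at 18 h than in unexposed lungs, and Hmgcs1 was 1.41-fold higher. Fdft1 and Lss differed least, by log2 differences of 0.20 and 0.19. At 6 h no member was 2-fold away from unexposed lungs, and at 90 h all 6 lay below their 18 h level. Of the 6286 genes measurable on any array, 21.4% had their highest level in the 18 h pool. The 18 h maximum held for all 6 members under each scaling tried. The levels are intensities, the brightness of a probe set in array units, after scaling each array to the same trimmed mean. Values under the floor of 77.7 units, below which probe sets were treated as too dim to measure, were set to it. Probe sets differ in brightness for the same amount of RNA, so levels are set against each other only within a gene. In whole lung, fewer cells of a type and less RNA per cell cannot be told apart.

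**Figure D1:**
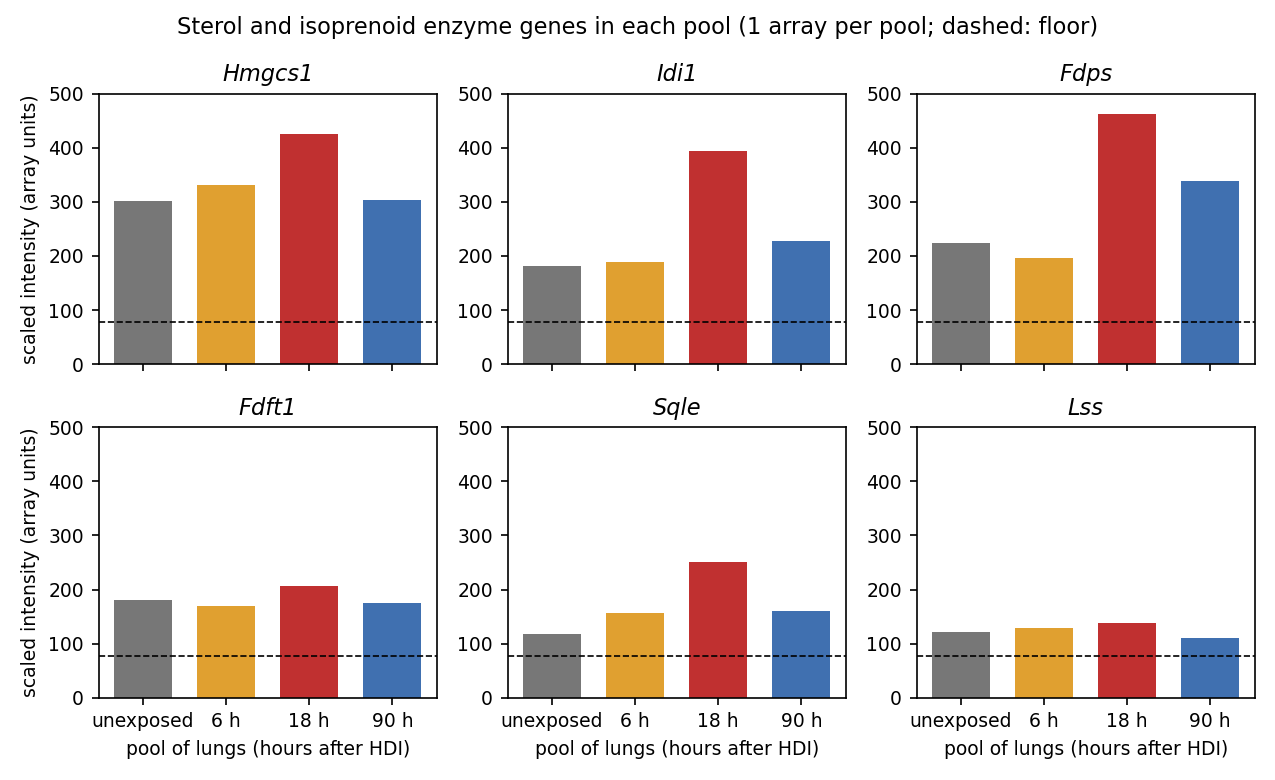
Scaled intensity (array units, linear axis from 0) of each member in the unexposed pool and the pools 6, 18 and 90 h after HDI, with 1 bar per array and no error bar, since each pool had 1 array. The red 18 h bar is the tallest in each of the 6 panels, and every bar lies above the dashed floor of 77.7 units.

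Hmgcs1 encodes the cytosolic synthase that makes HMG-CoA, the substrate of the statin target HMG-CoA reductase, and so stands at the top of the pathway. Its scaled intensities were 301 in the unexposed pool, 330 at 6 h, 424 at 18 h and 303 at 90 h. The 18 h pool was highest, a log2 difference of 0.36 above the 6 h pool. The unexposed and 90 h pools were nearly equal (log2 difference 0.01, or -0.00 after cyclic loess). Against unexposed lungs the log2 differences were 0.14 at 6 h and 0.50 at 18 h.

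Idi1 encodes the isomerase that converts isopentenyl diphosphate to dimethylallyl diphosphate, so that isoprene units can be joined. Its scaled intensities were 182 in the unexposed pool, 189 at 6 h, 393 at 18 h and 227 at 90 h. The unexposed and 6 h pools were close, and the 18 h pool stood far above the other three. Idi1 was 2.16-fold higher at 18 h than in unexposed lungs (log2 difference 1.11) and 2.08-fold higher at 18 h than at 6 h. Among 6040 genes compared at 18 h with unexposed lungs, its difference was the 69th highest. At 90 h Idi1 was 1.73-fold lower than at 18 h, and 21.0% of its 18 h excess over unexposed lungs was left.

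Fdps encodes farnesyl diphosphate synthase, which makes the last intermediate shared by the sterol and the other isoprenoid branches, and is the target of nitrogen-containing bisphosphonates. Its brightest probe set, 160424_f_at, read 225 in the unexposed pool, 197 at 6 h, 462 at 18 h and 338 at 90 h. The suffix of this probe set marks possible cross-hybridisation with related sequences. A second probe set without such a suffix, 99098_at, read 186, 168, 416 and 310 in the same order of pools. Both probe sets thus placed the pools in the same order, lowest at 6 h and highest at 18 h. They gave 2.06-fold and 2.23-fold higher levels at 18 h than in unexposed lungs. Of the 6 members Fdps was the one with the highest level left at 90 h relative to unexposed lungs, with log2 differences of 0.59 by the first probe set and 0.73 by the second, with 47.6% of the 18 h excess left by the first. Its log2 difference at 6 h was -0.19 by the first and -0.15 by the second. The difference from 6 h to 18 h, 2.35-fold by the first probe set, was the 28th highest of 5994 genes. The other probe sets of Fdps, 162217_r_at and 162281_at, lay under the floor on all 4 arrays, with intensities of 0 to 37.9, and carry no information on its level.

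**Figure D2:**
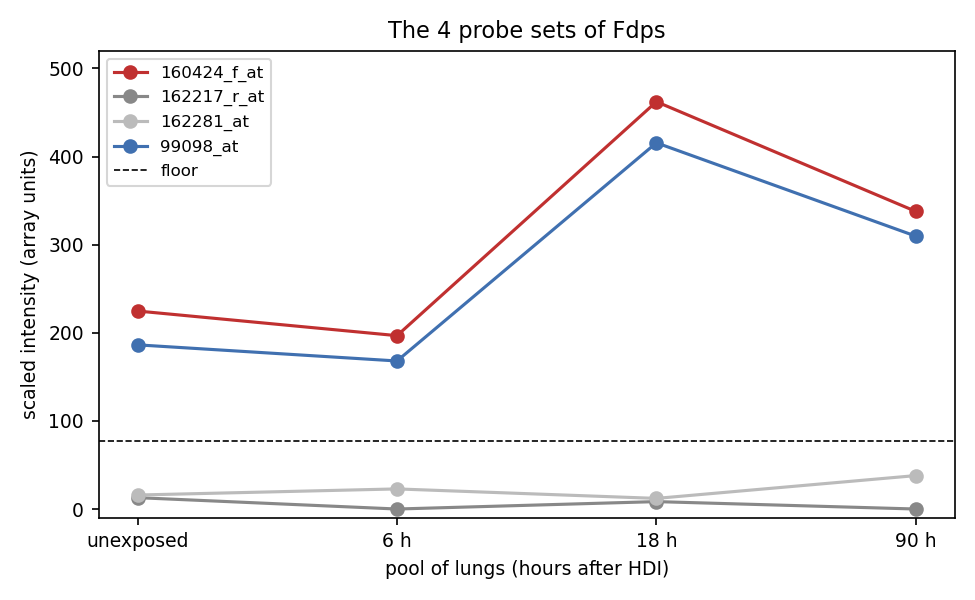
Scaled intensity (array units) of the 4 probe sets of Fdps in the 4 pools, with 1 point per array. The 2 bright probe sets run in parallel with a peak at 18 h, at 462 and 416 units, while the 2 dim ones stay under the dashed floor of 77.7 units in every pool.

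Fdft1 encodes squalene synthase, which commits farnesyl diphosphate to the sterol branch. Its scaled intensities were 180 in the unexposed pool, 169 at 6 h, 207 at 18 h and 175 at 90 h. The 4 pools lay close together, with the 18 h pool a log2 difference of 0.20 above the unexposed one. That difference was the 1650th highest of 6040 genes. Without scaling the signs of its small differences at 6 h and 90 h turned, to 0.02 and 0.10, while the 18 h difference stayed above 0 under every scaling.

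Sqle encodes squalene epoxidase, an oxygen-dependent and rate-limiting step of the sterol branch. Its scaled intensities were 119 in the unexposed pool, 157 at 6 h, 252 at 18 h and 161 at 90 h. The 6 h and 90 h pools were nearly equal and lay between the other two. Sqle was 2.12-fold higher at 18 h than in unexposed lungs (log2 difference 1.08), the 77th highest of 6040 differences. At 6 h it was 1.33-fold higher than in unexposed lungs (log2 difference 0.41), the furthest of the 6 members at that time, and at 90 h 1.36-fold higher, with 31.9% of the 18 h excess left. The level in unexposed lungs was within a factor of 1.53 of the floor, the lowest of the members, so this fold rests on a dim baseline.

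Lss encodes lanosterol synthase, which folds epoxidised squalene into lanosterol, the first sterol. Its scaled intensities were 122 in the unexposed pool, 129 at 6 h, 139 at 18 h and 111 at 90 h. All pools were dim and close to each other. The 18 h pool was 1.14-fold above the unexposed pool (log2 difference 0.19) and the 90 h pool 1.10-fold below it, a sign that turned to a log2 difference of 0.01 without scaling.

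Over all 6 members the median log2 difference from unexposed lungs was 0.07 at 6 h, 0.77 at 18 h and 0.16 at 90 h, against medians of -0.04, -0.01 and 0.03 over all genes compared. Members at least 2-fold higher numbered 0 of 6 at 6 h, 3 of 6 at 18 h and 0 of 6 at 90 h, and 0 of 6 were 2-fold lower at any of these times. The count at 18 h was 1, Idi1, with a pseudocount of 16 in place of the floor, and 2 with a floor at the 60th percentile or with probe sets averaged. Of all genes compared, 2.17% were at least 2-fold higher at 6 h, 1.59% at 18 h and 0.726% at 90 h, and 1.51%, 0.944% and 0.924% were at least 2-fold lower. The members were chosen with results of these arrays known, so their count at 18 h is not independent evidence of a direction. Of the genes past 2-fold in either direction, 62.7% were higher at 18 h and 44% at 90 h after scaling, but 81.6% and 61.2% with deposited values left unscaled, where the median of all genes at 18 h moved to 0.12. The members' median at 18 h without scaling was 0.91. Members above 0 numbered 4 of 6 at 6 h and at 90 h, beside 45.4% and 53.8% of all genes, and these counts ranged from 4 to 5 and from 3 to 6 over the scalings. At 18 h 6 of 6 were above 0 under each scaling, beside 48.1% of all genes. As a yardstick, the differences at 18 h of 2 probe sets of the same gene disagreed with a robust SD of 0.28 log2 units per probe set in 286 genes, and of 0.31 in 78 genes within the members' range of levels. This includes neither differences between animals and pools nor those between hybridisations. The differences of Fdft1 and Lss at 18 h lay within that SD. Those of Idi1, Sqle and Fdps lay above the 95th percentile of the disagreement within the members' range, 0.67 on the same scale per probe set. That of Hmgcs1, 0.50, lay above the SD but under 0.67. Probe sets with a suffix of possible cross-hybridisation were left out of the yardstick, although the main value of Fdps comes from such a probe set. Its measured probe set without a suffix gave 1.16.

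**Figure D3:**
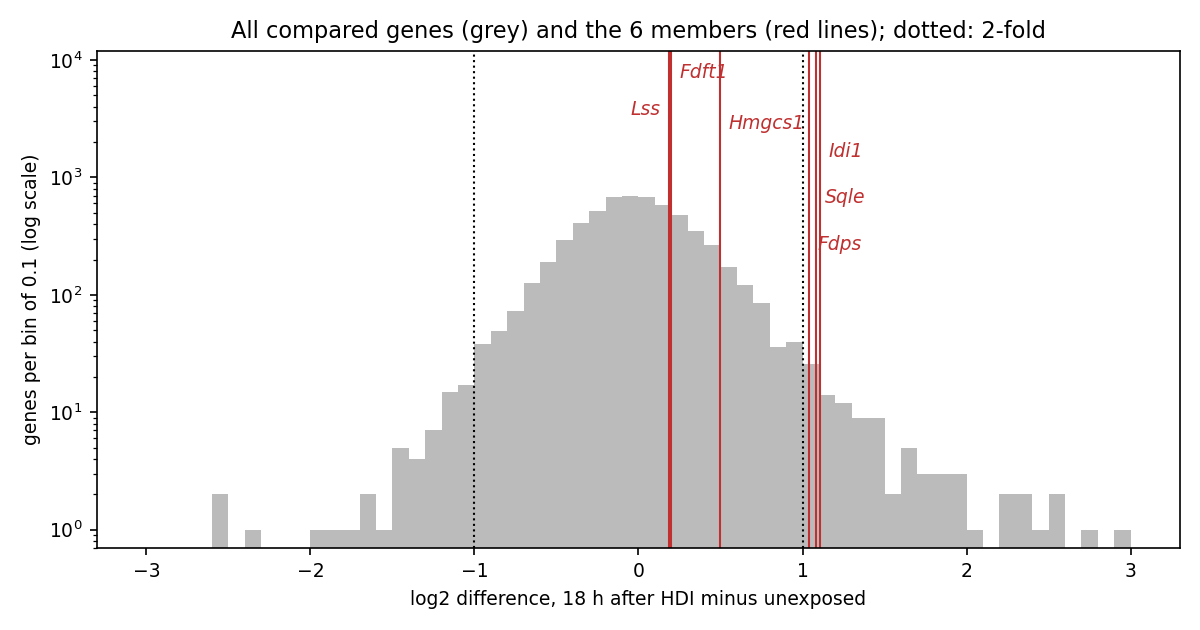
Number of genes (log axis) per bin of 0.1 in the log2 difference between the 18 h and the unexposed pool, over 6040 genes, with the 6 members as red lines. Fdps, Sqle and Idi1 lie between 1.04 and 1.11, right of the dotted 2-fold line, Hmgcs1 at 0.50, and Fdft1 and Lss at 0.20 and 0.19 within the bulk of all genes.

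From 6 h to 18 h all 6 differences were above 0, beside 49.3% of all 5994 genes compared, with a median of 0.52, and 2 of 6, Fdps and Idi1, were at least 2-fold higher, beside 1.18% of all genes. That count was 1 with a pseudocount of 16, where Idi1 just missed 2-fold, and 1 with probe sets averaged, where Fdps had a log2 difference of 0.63. Sqle was 1.60-fold higher at 18 h than at 6 h. From 18 h to 90 h all 6 were below 0, while 53.1% of all genes were above it. The members' median was -0.47, and 0 of 6 were 2-fold lower, beside 0.954% of all genes. The range ran from -0.24 for Fdft1 to -0.79 for Idi1. The 90 h and 6 h pools had a median difference of 0.04 over the members, with Fdps furthest apart at 0.78.

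The genes of most similar pattern were sought among 5077 other genes above the floor on all 4 arrays, by the Euclidean distance of their log2 differences at the 3 times from the members' median profile. The closest were Samm50, of the mitochondrial outer membrane, at a distance of 0.11, the ribosomal protein-like gene Rps27l at 0.12, Tkt, the transketolase of the pentose phosphate pathway, at 0.12, the proteasome subunit gene Psmb6 at 0.13 and the spliceosome core gene Snrpd3 at 0.14. The Rps27l probe set may cross-hybridise, by its suffix. Samm50, for example, read 125 in the unexposed pool, 136 at 6 h, 202 at 18 h and 145 at 90 h. These genes were picked for their small distances, so the members' spread cannot be judged against them. Of the members, Hmgcs1 lay nearest to the members' median profile, at 0.32, with 107 other genes closer. Lss lay furthest, at 0.65, with 1126 closer.

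Other enzymes of the mevalonate and sterol pathway were mixed. Of 9 such genes compared at 18 h, 7 were above 0, beside 48.1% of all genes, with a median log2 difference of 0.23, against -0.01 over all genes. Past 2-fold were 0 of 9, beside 1.59% of all genes higher and 0.944% lower. Cyp51 and Mvd, under the floor in unexposed lungs, could only lie above 0. Msmo1, the methylsterol monooxygenase that removes methyl groups from lanosterol products, had the highest of these 9 differences at 18 h, those of Cyp51 and Mvd being lower bounds. It read 183 in the unexposed pool, 281 at 6 h, 333 at 18 h and 229 at 90 h, 1.82-fold higher at 18 h than in unexposed lungs, and was already 1.54-fold higher at 6 h. Without scaling its difference passed 2-fold. Cyp51, the lanosterol demethylase, was under the floor in unexposed lungs and at 6 h and read 120 at 18 h and 78.9 at 90 h, at least 1.55-fold higher at 18 h. Nsdhl, a sterol dehydrogenase of the demethylation steps, read 82.1 in the unexposed pool, 87.8 at 6 h, 126 at 18 h and 96.0 at 90 h by a probe set that may cross-hybridise, and its other 2 probe sets were under the floor. These 3 genes also peaked at 18 h. Ebp, a sterol isomerase, was 1.18-fold higher at 18 h, but its 18 h and 90 h pools were nearly level, at 168 and 165. Of the 9 measurable genes of this list, 4 were highest at 18 h, beside 21.4% of all measurable genes.

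Mvk, mevalonate kinase, was highest at 6 h instead, reading 154 in the unexposed pool, 253 at 6 h, 202 at 18 h and 201 at 90 h. Its probe set also carries a suffix of possible cross-hybridisation, and its other one was under the floor. Ggps1, which makes geranylgeranyl diphosphate from farnesyl diphosphate, was nearly level by a probe set that may cross-hybridise. Its log2 differences were -0.06, 0.04 and 0.13 at 6, 18 and 90 h, the first of which was above 0 without scaling. The other probe set of Ggps1 was under the floor in every pool. Tm7sf2, a sterol reductase, was lower at 18 h by both of its measured probe sets, with log2 differences of -0.47 and -0.42. The related reductase gene Lbr had a log2 difference of -0.13 at 18 h, or 0.02 without scaling. At 6 h 3 of 7 compared genes of this list were above 0, beside 45.4% of all genes, with a median of -0.01. Without scaling 7 of 7 were above 0. At 90 h 8 of 9 were above 0, beside 53.8% of all genes, with a median of 0.20. Cyp51 and Mvd, under the floor in unexposed lungs, could only count as above 0 at 90 h. Hsd17b7, Sc5d and Dhcr7 were under the floor in every pool, and Mvd was under it except at 18 and 90 h. HMG-CoA reductase, the statin target, had no probe set with that symbol alone and was not analysed here.

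Genes that use the isoprenoids were above 0 at 18 h in 10 of 11 cases, under every scaling, beside 48.1% of all genes. Their median log2 difference was 0.30. Past 2-fold were 0 of 11, beside 1.59% of all genes higher and 0.944% lower. Fntb and Coq7, under the floor in unexposed lungs, could only lie above 0, and Icmt, under it at 18 h, only below. Coq7, of ubiquinone synthesis, read 63.9 in the unexposed pool, 78.8 at 6 h, 119 at 18 h and 61.4 at 90 h, and was at least 1.53-fold higher at 18 h. Rabggta, a subunit of the transferase that attaches geranylgeranyl groups to Rab proteins, was 1.49-fold higher at 18 h. Nus1, a subunit of the enzyme that makes the dolichol backbone, was 1.52-fold higher at 6 h, 1.40-fold higher at 18 h and 1.35-fold lower at 90 h than in unexposed lungs. Icmt, which methylates prenylated proteins, was the exception at 18 h, at least 1.37-fold lower. At 90 h the list's median was 0.02, close to the 0.03 of all genes.

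**Figure D4:**
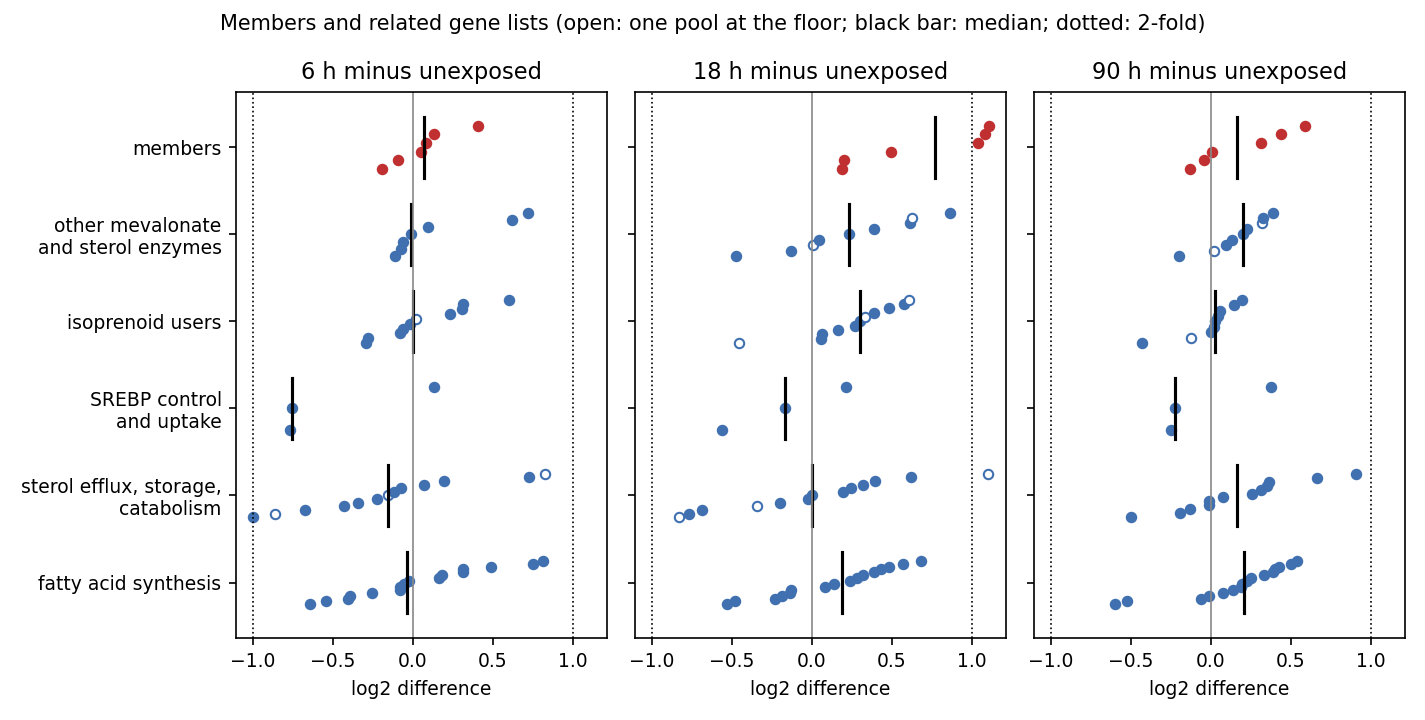
Log2 difference of each gene from the unexposed pool at 6, 18 and 90 h, for the 6 members (red) and 5 related lists (blue), with open points where 1 pool was at the floor, and black bars for the median. At 18 h the members' median of 0.77 lies right of the 0.23 of other mevalonate and sterol enzymes and the 0.19 of fatty acid synthesis genes, and no list other than the members has more than 1 gene past the dotted 2-fold line.

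Of the regulators of the pathway and receptors of sterol uptake, Srebf1 and Mbtps1 were not highest at 18 h, and Scarb1 was. Srebf1, which encodes the SREBP-1 transcription factors, read 430 in the unexposed pool, 253 at 6 h, 382 at 18 h and 560 at 90 h, so it was lowest at 6 h and highest at 90 h. Mbtps1, the protease that makes the first cut in SREBP precursors, was 1.69-fold lower at 6 h than in unexposed lungs and had a log2 difference of -0.56 at 18 h. Scarb1, a receptor for high density lipoprotein, was 1.16-fold higher at 18 h than in unexposed lungs. Insig1, which holds SREBP in the endoplasmic reticulum and is itself an SREBP target, was under the floor in every pool, and so was Vldlr. No probe set carried the symbol of Srebf2 or Scap alone.

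Of 13 genes of sterol export, storage and breakdown compared at 18 h, 7 were above 0, beside 48.1% of all genes. Of the 13, 1 was at least 2-fold higher, beside 1.59%, and 0 were 2-fold lower, beside 0.944%, with a median log2 difference of 0.00. Ch25h, under the floor in unexposed lungs, could only lie above 0, and Abca1 and Star, under it at 18 h, only below. Abcg1, a cholesterol exporter of macrophages, read 318 in the unexposed pool, 159 at 6 h, 187 at 18 h and 410 at 90 h. At 6 h it lay just past 2-fold lower than in unexposed lungs, and it fell short of 2-fold without scaling, after quantile normalization and after cyclic loess. It was 1.70-fold lower at 18 h. Abca1, the exporter that loads apolipoprotein A-I, read 139 in the unexposed pool, 128 at 6 h, 66.3 at 18 h and 177 at 90 h, at least 1.78-fold lower at 18 h. Its other probe set was dimmer and had a log2 difference of -0.16 at 18 h, cut short by the floor. Apoe, the apolipoprotein that carries exported lipid, was 1.61-fold lower at 18 h. Abcg1, Abca1 and Apoe were named after their values were seen.

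Ch25h, the enzyme that makes 25-hydroxycholesterol, which suppresses SREBP processing, was higher at 6 and 18 h. It read 71.2 in the unexposed pool, 138 at 6 h, 167 at 18 h and 48.7 at 90 h, and was at least 1.77-fold higher at 6 h and at least 2.15-fold higher at 18 h. Nr1h3, which encodes liver X receptor alpha, was at least 1.82-fold lower at 6 h and 1.19-fold higher at 18 h. At 90 h the lysosomal cholesterol transporter genes stood highest: Npc1 was 1.88-fold and Npc2 1.59-fold higher than in unexposed lungs.

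Fatty acid synthesis genes, which SREBP-1 controls, had a median log2 difference of 0.19 at 18 h and 0.21 at 90 h. The medians over all genes were -0.01 and 0.03. Above 0 at 18 h were 10 of 16, beside 48.1% of all genes. At 90 h 12 of 16 were, beside 53.8%. By the brightest probe sets 0 of 16 were past 2-fold at these times. A second probe set of Acsl4, an acyl-CoA synthetase, read 78.1 in the unexposed pool, 129 at 6 h, 201 at 18 h and 120 at 90 h, a log2 difference of 1.36 at 18 h, where the brighter one gave 0.28. Fasn, fatty acid synthase, read 766 in the unexposed pool, 951 at 6 h, 1072 at 18 h and 1111 at 90 h, and Acly, ATP citrate lyase, which supplies acetyl-CoA to both pathways, read 443, 435, 597 and 628 in the same order. Neither returned toward the unexposed level at 90 h, where the members' median had. Me1, malic enzyme, a source of NADPH, was 1.61-fold higher at 18 h and 1.26-fold higher at 90 h. The probe sets of Scd1, a fatty acid desaturase, disagreed at 90 h, with log2 differences of 0.39 and 0.99 by 2 of them and -1.07 by the third.

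Markers of other cell types also differed between the pools. The summed intensity of 8 macrophage markers, 6 of them above the floor in at least 1 pool, was 1423 in the unexposed pool, 1602 at 6 h, 2232 at 18 h and 2605 at 90 h. The sum was highest at 90 h, but its genes differed. Lgals3 read 415 in the unexposed pool, 567 at 6 h, 912 at 18 h and 661 at 90 h, and Cd14 read 246, 291, 525 and 334 in the same order. Both were thus highest at 18 h, as the members were, and past 2-fold there, while Mrc1, Cd68, Chil3 and Ctsk were highest at 90 h. Marco and Msr1 were under the floor in every pool. The sum of 5 alveolar type II cell markers, the cells that make surfactant, was 18221 in the unexposed pool, 17057 at 6 h, 18128 at 18 h and 18100 at 90 h. Its genes differed as well. Sftpc alone read 9874, 9435, 9136 and 9248 in the same order, and Lyz2 2986, 2324, 2267 and 3078, both lowest at 18 h. Sftpb read 3603, 3699, 4398 and 3554, and Napsa 1720, 1573, 2278 and 2196, both highest at 18 h. Sftpd was under the floor throughout. The sum of 6 adipocyte markers was 622 in the unexposed pool, 1309 at 6 h, 597 at 18 h and 559 at 90 h. Its genes differed too. Fabp4 read 218, 597, 163 and 159 in the same order, and Adipoq was also highest at 6 h. Lep read 186, 195, 204 and 162, and Retn 86.7, 149, 151 and 148. Ucp1 and Cidea were above the floor in the 6 h pool alone. Lpin1 and Thrsp had the highest differences of the fatty acid list at 6 h, 1.76-fold and 1.69-fold. Elovl1 and Mid1ip1 had the lowest, being 1.56-fold and 1.46-fold lower than in unexposed lungs. Of that list, 7 of 16 genes were above 0 at 6 h, beside 45.4% of all genes, with a median log2 difference of -0.04. Without scaling 11 of 16 were above 0. The part of cell makeup in these results was not tested.

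The 4 arrays had similar signal, with deposited medians of 97.7 to 108 and scale factors of 0.970 to 1.07. Genes above the floor numbered 5664 to 5733 per array. The surfactant gene Sftpc and the club cell gene Scgb1a1, which define lung, were bright in all 4 pools. The number of arrays limits the precision of every value above.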

How the data were processed

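Total RNA of pooled whole lungs was measured on 4 Affymetrix arrays, 1 per pool, grouped by the titles and descriptions. Each deposited value is the linear intensity of a probe set on 1 array, with exact zeros and nothing below 0. What the authors did to reach these intensities (software, background, scaling) is stated neither in the labels nor in the file. The table held 12488 probe sets, 66 of them controls. Gene symbols came from the platform annotation, where 10833 probe sets had 1 symbol, 396 several and 1193 were unnamed here.

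Each array was scaled to the mean of the 4 means trimmed by 2% at each end, values under the 40th percentile (77.7 units) were set to it, and log2 was taken. The brightest probe set stood for its gene, and a gene was compared where either array was above the floor. A gene at the floor on 1 array gives a bound, written "at least". No test was made, and genes were counted at 2-fold. All 6 members, any measured gene of the lists and the 5 genes nearest in pattern could be named. Members and lists were chosen with earlier results of these data known. Python 3.11.15, pandas 2.3.3, R 4.3.3 and limma 3.58.1 were used, and the code was tested on simulated data. Alternatives were 4 other scalings, other floors, a pseudocount of 16, averaged or unmarked probe sets and other thresholds.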

Additional observations from a re-analysis of the deposited data

Results flagged for a closer look

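No member met a criterion for a closer look. The related lists had 12, 11, 5, 13 and 16 genes on the array. Of these genes, 8 lay above the unexposed pool at 1 time and below it at another. Both differences exceeded the robust SD of the disagreement between probe sets. The rule was not applied to all genes, so no share stands beside this count and it says nothing particular about these lists. With 1 array per pool these opposite directions were not tested. Abcg1 (cholesterol export) was lower than in unexposed lungs at 6 h and had a log2 difference of 0.36 at 90 h, a change of 1.36 between these times. Abca1 (cholesterol export) moved by 1.19 between 18 h and 90 h, Npc1 (lysosomal cholesterol transport) by 1.26 between 6 h and 90 h, and Nr1h3 (liver X receptor alpha) by 1.12 between 6 h and 90 h. The values of Abca1 at 18 h and of Nr1h3 at 6 h are bounds. Srebf1 (SREBP-1) moved by 1.15 between 6 h and 90 h and Elovl1 (fatty acid elongation) by 1.21 between 6 h and 18 h. Lpin1 (phosphatidate phosphatase) and Nus1 (dolichol synthesis) went the other way between 6 h and 90 h, by -1.41 and -1.03.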

How the results depend on the processing

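The 30 log2 differences of the members over 5 comparisons were recomputed under the alternatives, which gave 268 values. Of these, 263 stayed within the robust SD of the disagreement between probe sets of the main value, and 0 of the differences past 2-fold changed sign. Part of the values could not move. Averaged or unmarked probe sets can change Fdps alone, since each other member has 1 unmarked probe set. The lower floor changes no member, since all lie above the floor in every pool. The count of 263 therefore overstates how far the results were challenged. The members' median stayed at 0.52 to 0.91 at 18 h, at 0.05 to 0.18 at 6 h and at 0.15 to 0.30 at 90 h, all above 0, also with the other measured Fdps probe set, an alternative chosen after seeing the data. The median of the other mevalonate and sterol enzymes ranged from 0.12 to 0.38 at 18 h. The count of 3 members past 2-fold at 18 h became 1 with a pseudocount of 16 in place of the floor, where Fdps and Sqle both had a log2 difference of 0.99, and 0 at a threshold of 3-fold. From 6 h to 18 h the count of 2 became 1 with that pseudocount and with averaged probe sets, and 0 at 3-fold. At 90 h the count of 0 became 1, Fdps, at a threshold of 1.5-fold. Sqle had a difference of 0.87 when the floor was raised to the 60th percentile, and Fdps 0.55 with its probe sets averaged, since 2 of them were at the floor in both pools. The Lss difference from 18 h to 90 h was -0.01 with the higher floor. No array could be left out, since each pool had 1. No paired analysis was possible because each group had 1 array. Signal near the floor limits Lss and Sqle most.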
